A study of Mus musculus with 4 samples.

Results

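The apical-basal polarity complexes were followed here through 10 genes: Pard3, Pard6a, Pard6b, Pard6g, Prkci, Prkcz, Crb3, Ezr, Llgl1 and Scrib. They were chosen by symbol, and every probe set that the platform annotation gives to 1 of these symbols alone was taken, which made 21 of the 45101 probe sets on the array. Of all 18194 genes so defined, these are 10. The brightest probe set, by the mean of the 4 arrays, stood for each gene, and the others are described beside it.

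Epithelial cells keep an apical and a basolateral side apart through protein complexes that exclude each other. On the apical side, the Par complex joins the scaffold Par3, the adaptor Par6 and an atypical protein kinase C, and the Crumbs complex hangs on a transmembrane protein. On the basolateral side, Scribble, Lgl and Dlg hold the opposite domain, and phosphorylation of Lgl by atypical protein kinase C removes it from the apical cortex. The epiblast of the mouse embryo becomes such a polarised epithelium around a lumen at implantation.

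The study compared mouse embryonic stem cells at day 0 with the tissue that they form by day 3 of SFEBq, a serum-free culture in which dissociated cells re-aggregate quickly and float. The labels call the day 3 samples epiblast-like tissue and name no genotype, strain or treatment beyond the culture. Total RNA of 2 samples per day was hybridised to Affymetrix arrays, 4 arrays in all, and the labels do not say whether duplicates were separate cultures. The p-values then cover no more than the spread between the duplicates, which can be purely technical. Culture form and medium changed together with the day and cannot be told apart from it.

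Across genes, Pearson's r was 0.9975 and 0.998 within the days and 0.9618 to 0.9619 from day to day, which describes the arrays only. The labels were checked against markers. All 12 naive pluripotency markers fell, and 8 of 10 epiblast markers rose, 1 fell and 1 was not called. Nanog fell by 2.72 on the log2 scale and Fgf5, an epiblast growth factor gene, rose by 7.57. Markers of visceral endoderm, an extra-embryonic epithelium, were higher at day 3 as well: 16 of 18 measured rose and 0 fell, and their summed signal went from 3310 to 3711 at day 0 to 25936 to 28750 at day 3 (linear RMA units, range over 2 arrays). Cubn, Apob and Ttr rose by 5.86, 6.79 and 4.32 on the log2 scale, Gata6 was not called (-0.25), and 0 of the 18 stayed under the first quartile of all signals. Trophectoderm markers went both ways (5 of 12 higher, 3 lower; summed signal 3444 to 4021 at day 0 and 7195 to 7205 at day 3). The keratin genes Krt8 and Krt18 carried that higher sum, and without them the other 10 markers summed to 2580 to 2839 and 1720 to 1799. Of those 10, Tfap2c was the brightest at day 0 (10.98 and 10.89) and stood at 6.70 and 6.89 at day 3. Gata3 and Cdx2 also fell (-0.75 and -0.61), while Plac1, Eomes and Krt7 rose (2.49, 2.46 and 0.58). The lower sum thus hangs on Tfap2c and is no common fall of the 10. Fibroblast markers also went both ways (4 of 14 higher, 3 lower; summed signal 6306 to 7212 and 1404 to 1413). Most of that sum was Vim, encoding vimentin, and the other 13 markers summed to 752 to 808 at day 0 and 851 to 854 at day 3. These genes were set apart after their values were seen. The part that these cell types have in any value below was not tested. In such bulk RNA, fewer cells of a type and less RNA per cell cannot be told apart.

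Values are log2 signals as the authors deposited them, and a difference is day 3 minus day 0 with the standard error of the fit. A gene was called at a Benjamini-Hochberg adjusted p under 0.05 in limma over all 18194 genes. By that rule 5 of the 10 polarity genes rose, 1 fell and 4 were not called. Among all genes tested, 42.3% were called, 20.9% higher and 21.4% lower, and among the genes above the median level, where all 10 members lie, 62.8% were called, 29.0% higher and 33.7% lower. The members' share called is thus near that of other genes of such levels. Day 0 and day 3 arrays were fully separated for 9 of the 10, against 69.0% of all genes. That share takes in genes below the median level, where no member lies, and was not computed for genes of the members' levels. The median difference of the members was 0.29, against 0.01 over all genes. At least 2-fold changes were called for 2 members, Crb3 and Pard6g by their brightest probe sets, against 10.2% of all genes. This share, too, was not computed for genes of the members' levels. Differences therefore ranged widely within the complexes, and Prkci moved opposite to the 5 genes that rose.

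**Figure D1:**
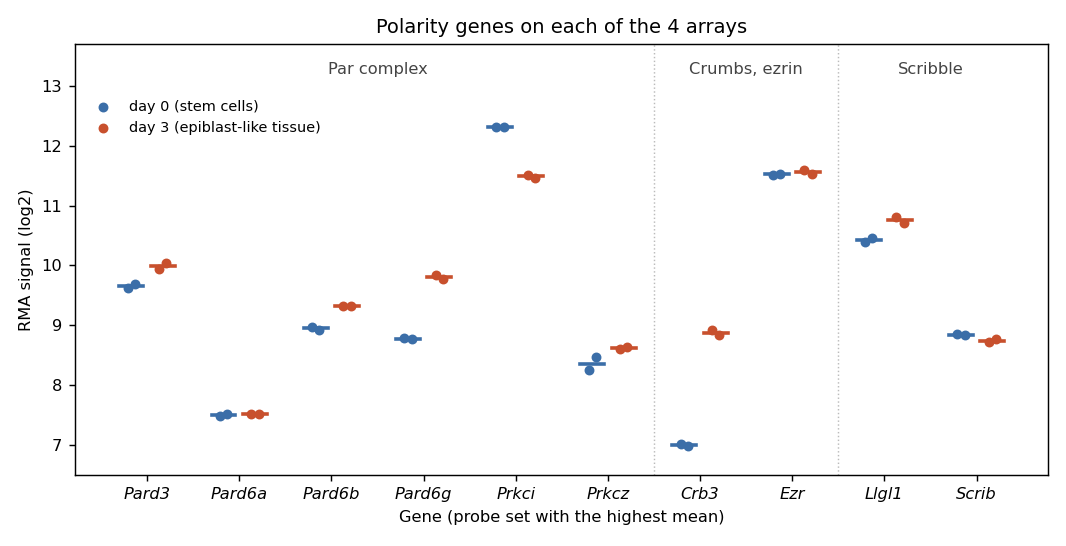
RMA signal (log2) of the 10 polarity genes on each of the 4 arrays, by the brightest probe set; points are arrays, short lines the means of 2 arrays per day. Crb3 and Pard6g stand higher at day 3, Prkci stands lower, and the points of Ezr overlap between days. Heights of different genes are not comparable, since each comes from its own probes.

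Crb3 changed most. It encodes a small transmembrane protein of the apical membrane, whose cytoplasmic tail binds Pals1 and Par6. Its signal was 7.02 and 6.98 on the day 0 arrays and 8.92 and 8.83 on the day 3 arrays. The days lay far apart beside a spread of at most 0.06 (SD) within them. The rise was 1.87 ± 0.09 (SE), or 3.67-fold (limma, adjusted p = 5.3e-08), and 96.7% of all genes had an absolute difference no larger than that. All 3 Crb3 probe sets rose, but not by the same size. Probe set 1455115_a_at rose by 1.44 and probe set 1434851_s_at by 3.37, a 10.3-fold rise from 6.37 and 6.09 to 9.58 and 9.61. The size of the rise thus depends on the probes. The suffix _s_at marks probe sets that can match several transcripts.

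Promoter sequences are shown for the gene that rose most, for Pard6b, which rose less, and for the 2 atypical protein kinase C genes, which differ in their response. They are the 250 bases before the annotated start in RefSeq (GRCm38.p6), and 8 of the 10 genes were searched. Scrib had no entry among the promoters. Pard6g was left out by its chromosome, 18, and not for want of a match, so its promoter is not reported here. Capitals mark the E-box CAGGTG or its reverse complement CACCTG, so that both strands are covered; these spellings cannot overlap each other. This form of the E-box is a binding sequence of the zinc finger repressors Snail and Zeb and of several basic helix-loop-helix factors.
Crb3, chr17:57061951-57062200, + strand: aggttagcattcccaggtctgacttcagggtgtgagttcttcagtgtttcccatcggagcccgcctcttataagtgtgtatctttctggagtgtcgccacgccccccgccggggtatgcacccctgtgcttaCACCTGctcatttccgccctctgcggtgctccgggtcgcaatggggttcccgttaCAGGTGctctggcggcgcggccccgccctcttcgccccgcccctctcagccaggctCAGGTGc
Pard6b, chr2:168080754-168081003, + strand: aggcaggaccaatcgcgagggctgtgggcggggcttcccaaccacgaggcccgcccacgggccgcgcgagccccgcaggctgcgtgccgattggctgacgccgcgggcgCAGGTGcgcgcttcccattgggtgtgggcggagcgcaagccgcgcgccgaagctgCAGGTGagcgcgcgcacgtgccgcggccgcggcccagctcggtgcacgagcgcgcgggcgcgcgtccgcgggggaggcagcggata
Prkcz, chr4:155361429-155361678, - strand: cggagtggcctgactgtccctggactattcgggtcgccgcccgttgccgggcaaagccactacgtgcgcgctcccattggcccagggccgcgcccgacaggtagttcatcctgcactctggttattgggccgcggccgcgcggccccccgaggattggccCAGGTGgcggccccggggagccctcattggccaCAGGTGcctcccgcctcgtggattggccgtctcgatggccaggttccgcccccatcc
Prkci, chr3:30995521-30995770, + strand: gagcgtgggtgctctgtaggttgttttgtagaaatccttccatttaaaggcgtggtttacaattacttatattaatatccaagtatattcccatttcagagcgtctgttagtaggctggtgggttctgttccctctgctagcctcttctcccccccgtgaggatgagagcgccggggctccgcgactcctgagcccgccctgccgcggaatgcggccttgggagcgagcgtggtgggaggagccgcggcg

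The windows searched ran from 250 bases before the start to 50 bases after it. Crb3 held 4 E-boxes, with first bases at -118, -63, -7 and 26 from the start, and the window of its second annotated start, which overlaps this one, held the same 4. Over all 32851 promoter windows of this length, 20.2% held at least 1 E-box, 2.88% at least 2 and 0.0548%, or 18 windows, at least 4. Pard6b held 2, at -141 and -86. Prkcz held 2 at its first annotated start, at -90 and -57, 0 at its second and 1 at its last. Pard3 held 0 at its first start and 3 at its second, and Pard6a 0 and 1. No match was found in the windows of Prkci, Ezr and Llgl1. E-boxes were thus found for 5 of the 8 genes searched: 3 that rose and 2 that were not called. Counted by window, 7 of 13 held at least 1, beside the 20.2% of all windows, and genes with several starts had more windows. The 2 overlapping Crb3 windows are both among these 7 and among the 18 with at least 4. A share by gene over all genes was not computed. The first Crb3 window had 62.3% G and C and that of Pard6b 77%, beside a median of 52.7%, while the second Pard3 window had 50%. The part of base composition in these counts was not tested. A match is a run of letters and not a shown binding site, and a window without one says only that these letters are not there.

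**Figure D2:**
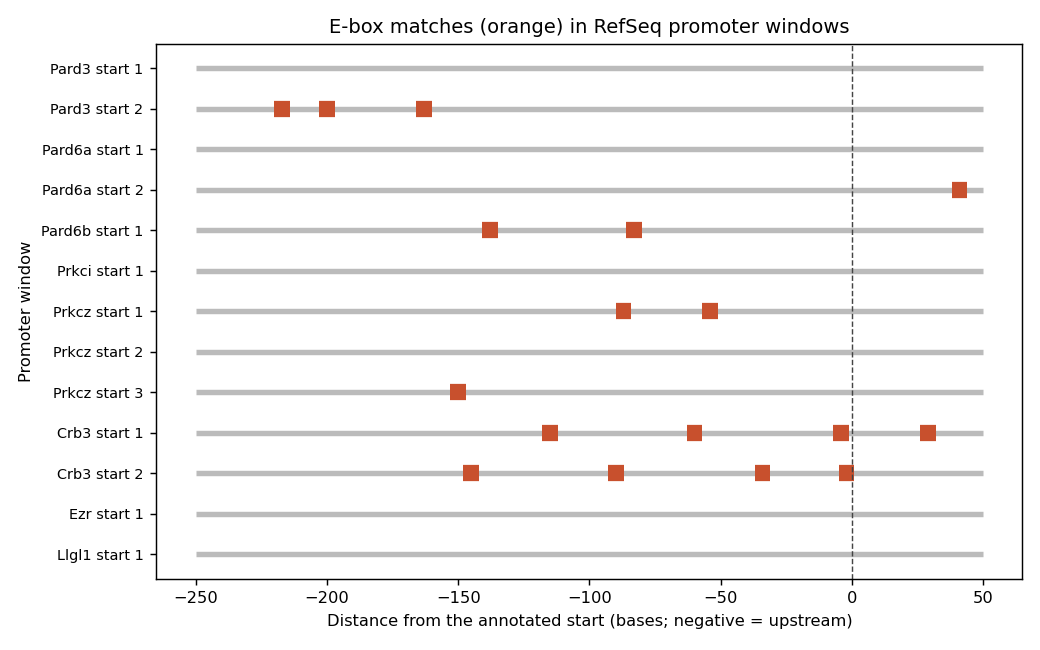
E-box matches (orange blocks) in the 13 RefSeq promoter windows of 8 polarity genes; the horizontal axis is the distance from the annotated start in bases, and each grey line is 1 window. The 2 Crb3 windows hold 4 matches each, and those of Prkci, Ezr and Llgl1 hold 0.

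Ezr encodes ezrin, which ties apical membrane proteins to cortical actin. Its signal was 11.51 and 11.53 at day 0 and 11.59 and 11.52 at day 3, so the days overlapped. The difference was 0.03 ± 0.06 (SE) and missed the threshold (limma, adjusted p = 0.68), and its 95% interval ran from -0.09 to 0.16. A second Ezr probe set had a difference of 0.19 and was not called either (adjusted p = 0.11 over all probe sets).

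Within the Par complex, Prkci fell while Pard3, Pard6b and Pard6g rose, and Pard6a and Prkcz were not called. Prkci encodes atypical protein kinase C iota, the catalytic subunit, which phosphorylates Lgl and Par3. It was at 12.32 and 12.31 at day 0 and at 11.51 and 11.46 at day 3. The days were well separated, and both day 3 arrays were lower. It fell by 0.83 ± 0.05 (SE) on the log2 scale, a factor of 1.77 (limma, adjusted p = 4.7e-07). Its second probe set, 1448695_at, with different levels (7.68 and 7.79, then 7.00 and 6.90), fell by 0.78.

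Prkcz encodes the zeta isoform of the same kinase class. Its signal was 8.24 and 8.47 at day 0 and 8.60 and 8.63 at day 3, so the days did not overlap but the day 0 arrays stood apart from each other. The difference of 0.26 ± 0.09 (SE) just missed the threshold (limma, adjusted p = 0.051), with a 95% interval of 0.05 to 0.47. Over 12 alternatives its adjusted p ran from 0.0051 to 0.29 and it was called in 5. Without day 0 replicate 2 the difference was 0.37 and called (adjusted p = 0.0051), and without day 0 replicate 1 it was 0.14 and not called (adjusted p = 0.29). Of its other probe sets, 1454902_at rose by 0.53 (adjusted p = 0.0075 over all probe sets) and 1449692_at had a difference of 0.12 that was not called.

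The 2 isoforms changed unequally. On each array the Prkcz signal minus the Prkci signal was -4.08 and -3.84 at day 0 and -2.91 and -2.83 at day 3 (log2), a shift of 1.08 toward Prkcz. That shift is a description, since 2 against 2 arrays allow no permutation p below 0.333. The size of the gap itself reflects different probes and is no ratio of transcripts.

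The 3 Par6 genes encode adaptors that bring atypical protein kinase C together with active Cdc42 and Par3. Pard6g was at 8.78 and 8.76 at day 0 and at 9.83 and 9.78 at day 3. It rose by 1.03 ± 0.07 (SE), or 2.04-fold (limma, adjusted p = 9.2e-07), with no overlap of the days. Its other probe set, 1450025_at, at a lower level (5.02 and 5.15, then 5.53 and 5.31), had a difference of 0.34 that was not called, and from the mean of both probe sets the rise was 0.68 and still called.

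Pard6b was at 8.98 and 8.92 at day 0 and at 9.32 on both day 3 arrays. It rose by 0.37 ± 0.07 (SE; limma, adjusted p = 0.0019), and its second probe set rose by 0.38. Pard6a was at 7.48 and 7.52 at day 0 and at 7.52 on both day 3 arrays, a difference of 0.03 ± 0.09 (SE) that missed the threshold (limma, adjusted p = 0.87; 95% interval -0.18 to 0.23). The 3 paralogs thus ran from no called change to a 2.04-fold rise. On each array Pard6g minus Pard6b went from -0.19 and -0.16 at day 0 to 0.51 and 0.46 at day 3, and Pard6b minus Pard6a from 1.50 and 1.40 to 1.80 and 1.79, both as descriptions.

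Pard3 encodes the scaffold with PDZ domains that anchors the complex at cell junctions. Its signal was 9.62 and 9.70 at day 0 and 9.94 and 10.04 at day 3. It rose by 0.33 ± 0.07 (SE), or 1.26-fold (limma, adjusted p = 0.0032). Without day 3 replicate 2 the difference was 0.28 and was no longer called (adjusted p = 0.056, against 0.0012 to 0.056 over all alternatives). Of its 3 other probe sets, 2 rose, by 0.48 and 0.56, and 1420391_at, whose arrays overlapped between days, had a difference of -0.03.

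On the basolateral side, Llgl1 rose slightly and Scrib was not called. Llgl1 encodes an Lgl protein, a substrate of atypical protein kinase C. It was at 10.39 and 10.46 at day 0 and at 10.80 and 10.71 at day 3, a rise of 0.33 ± 0.07 (SE), or 1.25-fold (limma, adjusted p = 0.002). Scrib encodes a large scaffold with leucine-rich repeats and PDZ domains. It was at 8.85 and 8.84 at day 0 and at 8.71 and 8.77 at day 3. Its difference of -0.10 ± 0.08 (SE) missed the threshold (limma, adjusted p = 0.33; 95% interval -0.28 to 0.07), although both day 3 arrays were below both day 0 arrays. Each of these genes had 1 probe set.

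**Figure D3:**
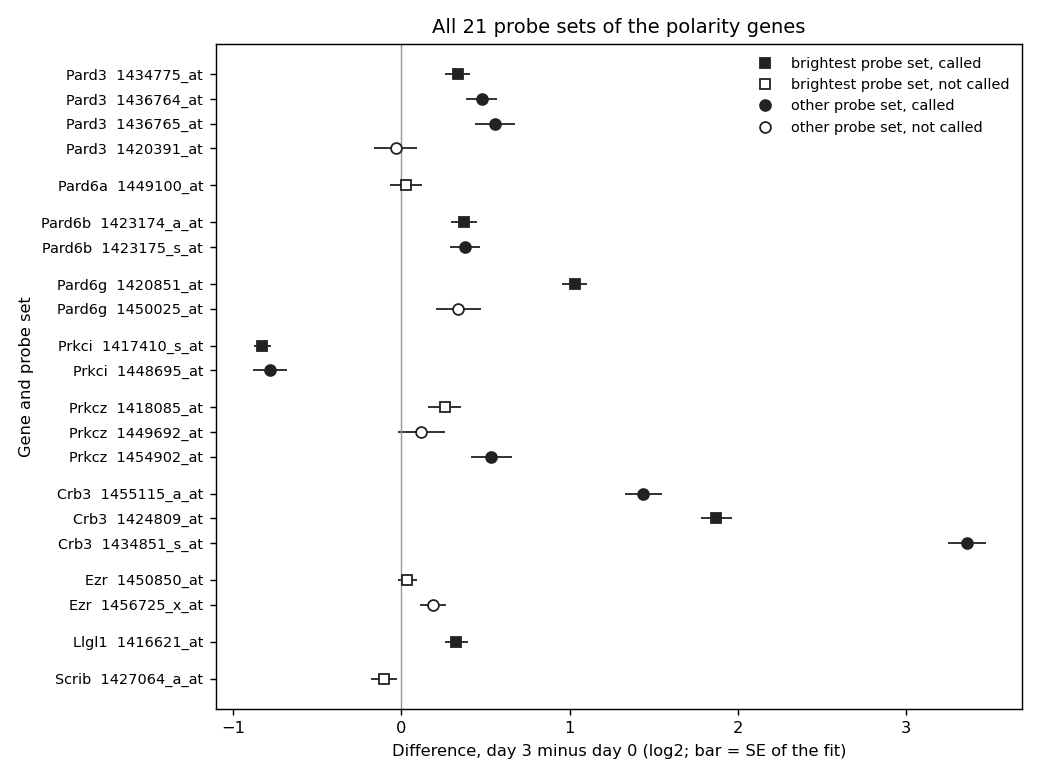
Difference between days (log2, day 3 minus day 0, bars are the standard error of the fit) for all 21 probe sets of the polarity genes; squares are each gene's brightest probe set, filled symbols were called over all probe sets. The Crb3 probe sets rise by 1.44 to 3.37, both Prkci probe sets lie below 0, and probe sets of Pard3, Pard6g and Prkcz differ in whether they were called.

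Tested one by one over all 45037 probe sets that are not controls, 11 of the 21 probe sets rose, 2 fell and 8 missed the threshold. Of those 45037, 30.9% were called, 14.2% higher and 16.7% lower. These shares take in dim probe sets and were not computed for probe sets of the members' levels. The probe sets of a gene are not independent of each other. The 2 that fell were both of Prkci.

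The other genes of the pathway were counted in lists. Each count below stands beside 42.3% called over all genes (20.9% higher, 21.4% lower). Among genes above the median level 62.8% were called (29.0% higher, 33.7% lower), and some list genes lie below that level. The counts are descriptions and were not tested against these shares. Of 11 measured genes of the Crumbs complex and its binding proteins, 6 rose, 1 fell and 4 were not called, with a median difference of 0.20. Amot, encoding angiomotin, which binds Patj, rose from 8.79 and 8.32 to 12.41 and 12.27, a difference of 3.79 ± 0.13 (SE). Mpdz, encoding a scaffold of many PDZ domains, rose by 2.66 ± 0.09, and its close relative Patj, the scaffold that joins Pals1 in the Crumbs complex, by 2.22 ± 0.11. These 3 passed 2-fold (limma, adjusted p at most 5.3e-08). All 4 Patj probe sets rose, by 0.64 to 3.18, and all 3 of Amot, by 0.51 to 3.79, but only 1 of 4 Mpdz probe sets was called. Crb3 and the scaffolds Patj and Mpdz therefore all stood higher at day 3, by their brightest probe sets.

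Of 12 measured partners of the Scribble module, 6 rose, 3 fell and 3 were not called, with a median of 0.24. Llgl2, the second Lgl gene, moved opposite to Llgl1. It was at 10.79 and 10.73 at day 0 and at 8.89 on both day 3 arrays, and fell by 1.87 ± 0.07 (SE), a factor of 3.65 (limma, adjusted p = 7.5e-09; 1 probe set). Llgl1 and Llgl2 thus changed in opposite directions, each past the threshold. Lrrc1, encoding a protein related to Scribble, rose by 1.60 ± 0.09. Vangl2, encoding a planar polarity protein that binds Scribble, rose by 1.42 ± 0.09, with all 3 probe sets called. Dlg3, of the Discs large family, rose by 1.18 ± 0.09. Erbin, which encodes a further relative of Scribble, rose by 1.08 ± 0.08, with 1 of its 4 probe sets called.

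A list of the ezrin relatives radixin and moesin and of apical linkers, which does not hold Ezr itself, had 9 measured genes. Of these 5 rose, 3 fell and 1, Slc9a3r2 (-0.19), was not called, with a median of 0.67. Podxl, encoding the sialomucin podocalyxin, which ezrin anchors, was higher on both of its probe sets (3.23 and 1.83). Pdzk1, encoding a PDZ scaffold of apical membranes, rose from 5.45 and 5.60 to 8.68 and 8.58, by 3.10 ± 0.11 (SE). Podxl and Pdzk1 rose between the same days as the visceral endoderm markers (16 of 18 higher) and the epiblast markers (8 of 10 higher, 1 lower). With only these days compared, every gene that rose did so in the same arrays. Which cells carried the rise of Podxl and Pdzk1 was not tested.

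Of 8 measured partners of the Par complex, 2 rose, 1 fell and 5 were not called, beside 42.3% called over all genes, with a median of -0.01. The largest called difference was that of Ect2, a gene needed for cytokinesis, which fell by 0.62 ± 0.06 (SE; limma, adjusted p = 7.5e-06). Of 16 genes of the Par-1 kinases, the Lkb1 complex and the 14-3-3 proteins, which keep the Par complex out of the basolateral side, 2 rose, 6 fell and 8 were not called, with a median of -0.12. Sfn, encoding 14-3-3 sigma, fell by 1.60 ± 0.11 and was the only one past 2-fold.

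Of the 6 other protein kinase C isoforms measured, 3 rose, 1 fell and 2 were not called, with a median of 0.22. Prkcb, a calcium-dependent isoform, rose by 1.50 ± 0.11 (SE; limma, adjusted p = 1.6e-06), with 2 of its 3 probe sets called. Over these 6 lists the median differences lay between -0.12 and 0.67, beside 0.29 for the polarity genes and 0.01 for all genes.

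**Figure D4:**
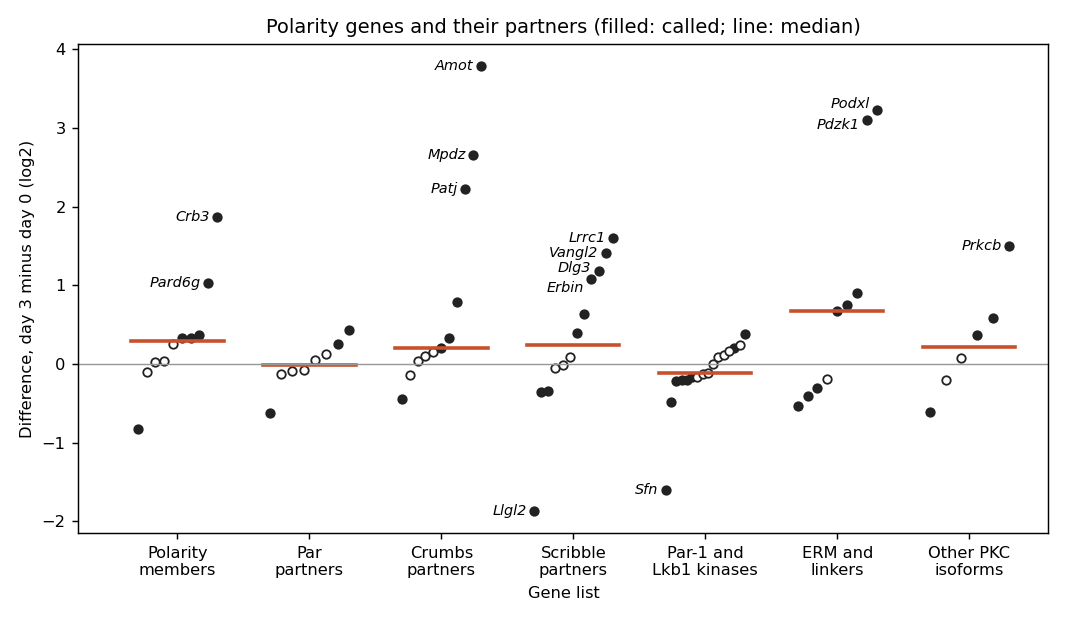
Difference between days (log2, day 3 minus day 0) of the 10 polarity genes and of 6 lists of their partners; each point is a gene, filled points were called, the orange line is the median of a list, and genes called past 2-fold are named. Llgl2 and Sfn are the lowest points, at -1.87 and -1.60, and Amot is the highest, at 3.79.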

How the data were processed

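Total RNA was extracted, reverse transcribed and labelled with biotin for Affymetrix arrays, per the labels' protocols. The authors deposited log2 values, 1 per probe set and array; RMA and R 2.13.0 are named per the submitters' processing notes, and other settings are not given in the sources used here. RMA makes the distributions of arrays alike (medians 5.776 to 5.791), so a change of total RNA per cell cannot be seen, and differences between dim probe sets are understated.

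Of 45101 probe sets, 64 were controls, 34958 had 1 gene symbol, 932 several and 9211 none; only those with 1 symbol were named. Genes were compared with limma 3.58.1 under R 4.3.3 (lmFit, eBayes with an intensity trend, no covariate, two-sided), with 2 residual and about 8.02 prior degrees of freedom, and the same was done for every probe set that is not a control. The procedure was tested on simulated data. The number of arrays limits the precision, and no detection calls were used. Members, lists and the rule for named genes (all members, and list genes called past 2-fold or else the largest called) were chosen with earlier results of these data known. The planned comparison of paralog proteins was not made. Same-numbered arrays did not deviate together (correlation -0.0363), so replicate numbers were not taken as pairs.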

Additional observations from a re-analysis of the deposited data

How the results depend on the processing

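The alternatives were a fit without the trend, a robust fit, renewed quantile normalization, median centring, genes above the median level, averaging all probe sets per gene, dropping probe sets ending in _s_at or _x_at, a replicate block, leaving out each array, and an adjusted p under 0.01. The count of polarity genes called lower was 1 in each, and the count called higher was 4 to 6. With 1 array left out, its lone partner was assumed to vary like the other day, and genes called higher over the whole array numbered 2911 to 3693, lower 2893 to 3749. With the replicate block, 3790 genes were higher and 3871 lower, and of the polarity genes 6 and 1; Prkcz was then called (0.26, adjusted p = 0.046), and the block changed no other member's call. Of 120 values of single members under alternatives, 113 kept direction and side of the threshold. Pard6a turned to -0.022 after quantile normalization (adjusted p = 0.89), Pard3 lost its call without 1 array, and the other 5 were calls of Prkcz. Day 3 and day 0 signals of these genes all lay above the arrays' first quartile of 4.319.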

Other observations

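Mpp5, which encodes Pals1, the scaffold that joins Crumbs to Patj, had the largest standard error among the genes of the 6 partner lists, and was singled out after its values were seen. By its brightest probe set it was at 8.71 and 9.13 at day 0 and at 9.32 and 8.25 at day 3, so that the day 3 duplicates differed by more than the days did. The difference was -0.14 ± 0.27 (SE) and missed the threshold (limma, adjusted p = 0.74), and the 2 other probe sets had differences of 0.32 and 0.25 that were not called either.

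All 3 Prkcz probe sets were lower in day 0 replicate 1 than in day 0 replicate 2, at 8.24 and 8.47, 6.14 and 6.51, and 6.01 and 6.23, while the day 3 arrays lay closer together on each probe set. Probes of 1 gene on 1 array share its RNA, so these are not independent readings.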
